A study of Rattus norvegicus with 36 samples.

Results

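The interferon response and antigen presentation genes described here were 39 genes, chosen by name, of 14217 genes that had a probe set of their own on the array. They comprised transcription factors and regulators (6 genes), RNA sensors and a ligase that acts with them (3), antiviral effectors of the type I interferon response (13), chemokines and a GTPase typical of interferon gamma (4), subunits of the immunoproteasome and its activator (5), class I peptide loading genes (4) and class II presentation genes (4). Where several probe sets belonged to 1 gene alone, the brightest on average over the 36 arrays stood for it, and all 39 genes were measured. No filter on level was applied, so all 39 entered the tests.

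Liver RNA was profiled from 36 male Harlan Sprague Dawley rats on Affymetrix rat arrays, 1 array and 1 animal per sample. The animals were 7 weeks old at the start and received corn oil by oral gavage, without or with PBDE47 (2,2',4,4'-tetrabromodiphenyl ether, a brominated flame retardant), on 5 days, and livers were taken 1 day after the last dose. The 6 groups of 6 animals were the corn oil vehicle and PBDE47 at 0.0485 mg/kg, 0.485 mg/kg, 4.85 mg/kg, 48.5 mg/kg and 485 mg/kg, each daily. All groups shared sex, strain, diet and vehicle, and no group carried a genetic change. The hepatocyte markers albumin (Alb, 15.02 to 15.07 over the 36 livers) and transthyretin (Ttr, 14.49 to 14.67) were bright on every array. Values are log2 intensities, and each change is a log2 difference of a dose from vehicle with its standard error (SE) unless another pair is named.

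Interferons are secreted cytokines that cells release on sensing foreign nucleic acid. Type I interferons act through factors that include STAT2 and IRF9 at the interferon-stimulated response element (ISRE) of antiviral genes, whereas interferon gamma acts at gamma-activated sites (GAS) and raises IRF1, the immunoproteasome and the machinery that displays peptides on class I and class II molecules. In liver, hepatocytes carry class I molecules, and resident macrophages (Kupffer cells) and dendritic cells carry most class II molecules.

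The promoters of these genes were searched for the core of the ISRE. The genes were chosen by name as interferon response and antigen presentation genes, so a high share of matches follows in part from that choice. A link between a match and the variation between animals was not tested. In RefSeq promoter windows of 300 bases on the GRCr8 assembly (250 before and 50 after each gene start), 32 of the 39 genes had a window. The core, searched as GAAA, any 2 bases and GAAA on either strand, occurred in 17 of these 32 windows (53.1%), against 3.92% of all 33469 windows of the same length. The match was present in 6 of 8 type I effectors, all 4 class I peptide loading genes, 3 of 5 immunoproteasome genes and 0 of 4 class II genes. The GAS core, searched as TTC, any 3 bases and GAA, which reads the same on both strands and may overlap an ISRE core, occurred in 8 of 32 windows (25%), against 8.87% of all windows. A match is a run of letters and not a measured binding site. The windows below belong to the 8 genes with the largest spread between animals among those with a match. They read 5′ to 3′ along the gene's strand, with the first match in capitals; TTTC first means that the core lies on the opposite strand.
Oas1a, chr12:41330400-41330459, plus strand: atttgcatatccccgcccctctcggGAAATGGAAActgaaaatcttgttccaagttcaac
Irf7, chr1:205800058-205800117, minus strand: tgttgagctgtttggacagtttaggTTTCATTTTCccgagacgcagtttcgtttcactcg
Ifit3, chr1:241527257-241527316, plus strand: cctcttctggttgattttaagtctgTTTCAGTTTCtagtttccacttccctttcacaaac
Gbp2, chr2:234005667-234005726, plus strand: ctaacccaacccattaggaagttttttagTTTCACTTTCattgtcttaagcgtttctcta
Rsad2, chr6:48788233-48788292, minus strand: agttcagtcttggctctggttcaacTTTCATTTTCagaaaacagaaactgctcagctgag
Cxcl10, chr14:15988816-15988875, plus strand: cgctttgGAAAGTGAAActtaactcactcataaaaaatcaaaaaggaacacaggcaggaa
Psmb8, chr20:4657016-4657045, minus strand: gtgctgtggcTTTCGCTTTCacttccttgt
Tap1, chr20:4668630-4668689, minus strand: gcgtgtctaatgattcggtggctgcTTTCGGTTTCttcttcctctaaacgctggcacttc
The matches of Irf7 and Rsad2 read TTTCATTTTC, both on the opposite strand. The match of Psmb8 began 4 bases before the gene start and that of Tap1 121 bases before it. Tap2, Psmb8, Tap1 and Psmb9 are consecutive protein-coding genes on chromosome 20, and Cxcl11, Cxcl10 and Cxcl9 are consecutive on chromosome 14.

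Before any comparison, 5 animals stood apart from the other 31. Each animal was given the median, over the 13 type I effectors, of its log2 difference from the median of 36 animals. This score was -1.12 and -0.79 in replicates 6 and 5 of the 4.85 mg/kg group. It was -0.93 in replicate 3 at 0.485 mg/kg, -0.76 in replicate 6 of the highest dose and -0.69 in replicate 3 of the 48.5 mg/kg group. The next lowest animal was at -0.26 and the highest, replicate 4 at 485 mg/kg, at 0.99. In 9 of the 39 genes (Irf7, Irf9, Mx1, Mx2, Oas1a, Ifit3, Isg15, Usp18 and B2m) each of the 5 animals lay below each of the other 31, and of these Irf7, Irf9 and B2m were not part of the score. Of all 14217 named genes 36 did so, the 9 included. Isg15, a ubiquitin-like protein attached to other proteins, stood at 5.93, 6.22, 6.22, 6.32 and 7.01 in these animals, against 7.10 to 9.11 in the others. Every dose but the lowest held at least 1 of these animals, and vehicle held none. The labels give no scan date or other batch.

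Most macrophage markers were also low in the same 5 animals. The median log2 difference of 9 Kupffer cell and macrophage markers was -0.47 to -0.60 there, against -0.45 to 0.51 in the others. Cd68, a lysosomal protein of macrophages, was 7.73 to 7.90 in the 5 and 8.12 to 9.0 in the 31, and Clec4f, a lectin of Kupffer cells, was 9.73 to 9.95 and 10.02 to 11.16. In 4 of the 9 markers the 5 animals lay wholly below the others, beside 36 of 14217 named genes. In each of the 5 animals 8 of the 9 were below their median, beside 3.81% of named genes. Lyz2 was the exception, at 9.97 to 11.05 against 9.16 to 11.32. The summed level of the 9 markers (linear intensity) was 4261 to 5430 against 4368 to 8712. T and NK cell markers summed to 605 to 719 against 677 to 1079. In bulk tissue, fewer cells of a type and less RNA per cell cannot be told apart, and the part of either in the low values was not tested. A measure of RNA quality, the 3′ minus 5′ difference, was within the range of the others for Actb (1.09 to 1.21 against 1.01 to 1.46) and Gapdh (-0.16 to -0.04 against -0.25 to 0.04). The correlation of each of the 5 arrays with its group, across probe sets, had a median of 0.991 to 0.995, against 0.992 to 0.996 in the other 31. Replicate 6 at 4.85 mg/kg, at 0.991, was the lowest of all 36 arrays. Results are given with all 36 animals and, where they rest on these 5, without them. That second setting was chosen after the values were seen.

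**Figure D1:**
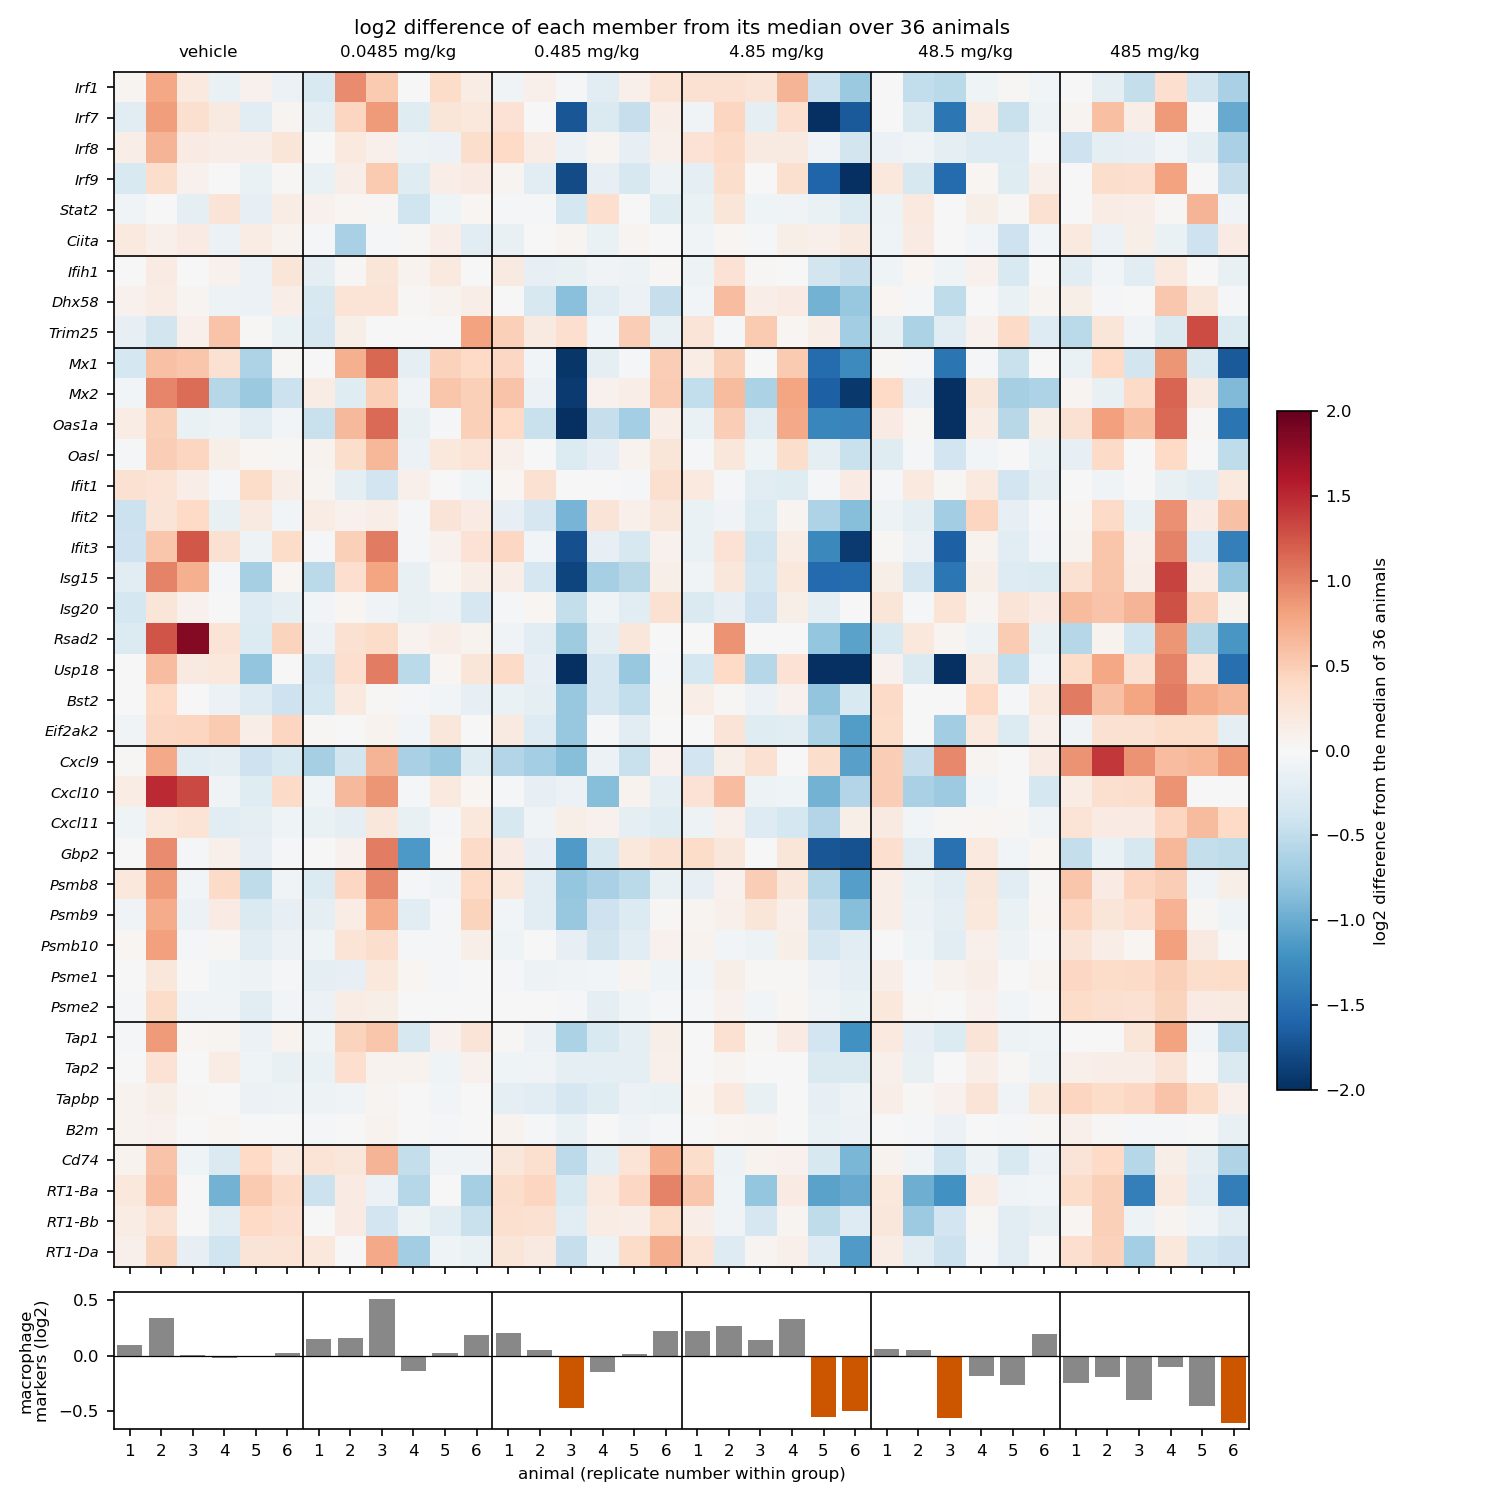
Log2 difference of each of the 39 genes (rows, grouped by role) from its median over 36 animals, with 1 column per animal ordered by dose; the lower panel gives the median difference of 9 macrophage markers, with the 5 animals that stand apart in orange. Dark blue columns through the type I effectors mark these 5 animals, and their macrophage bars lie between -0.47 and -0.60.

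At 485 mg/kg, 8 of the 39 genes passed the test, 7 higher (7.81% of probe sets) and 1 lower than vehicle (7.22%, limma, Benjamini-Hochberg adjusted p below 0.05 over 31042 probe sets). The higher ones were the proteasome activator subunits Psme1 and Psme2, the peptide loading factor Tapbp, the antiviral proteins Bst2 and Isg20 and the chemokines Cxcl9 and Cxcl11, by 0.31 to 0.95 on the log2 scale, and the lower one was the transcription factor Irf8. Of all probe sets 15% passed the same test, and of the 14217 genes by their brightest probe set 20.9%, so 8 of 39 is a share near the background. The median change of the 39 genes was 0.02, with 20 positive and 19 negative, beside -0.01 for all named genes. At 48.5 mg/kg only Irf8 passed, lower (3.39% of probe sets passed, and 0.821% as lower), and at 4.85 (0.0193%), 0.485 (0%) and 0.0485 mg/kg (0%) none did by limma. At an unadjusted p under 0.05, 6, 6 and 3 genes passed at those lower doses from 4.85 downward, all lower than vehicle, beside 6.46%, 4.45% and 4.89% of all probe sets.

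At 4.85 mg/kg 38 of 39 changes were below 0, with a median of -0.22 (0.00 for all named genes), and at 48.5 mg/kg 31 of 39 were, also with a median of -0.22. The medians were -0.18 at 0.485 mg/kg and -0.01 at 0.0485 mg/kg. All 5 comparisons share the 6 vehicle animals. Without the 5 animals that stand apart the median change was -0.13 at 0.485 mg/kg, with 30 of 39 below 0, and -0.02 at 4.85 mg/kg, with 23 below 0. It was -0.12 at 48.5 mg/kg, with 31 below 0, and 0.12 at 485 mg/kg, with 16 below 0. The same 8 genes passed at 485 mg/kg and Irf8 at 48.5 mg/kg in that setting, with 14.8% and 2.68% of probe sets called. The 5 animals left out were chosen for low type I effectors, and all of them were dosed. Higher dose medians without them therefore follow in part from that choice. No high animal was left out in turn. Vehicle replicate 2, with a median log2 difference over the 39 genes of 0.48 from the median of all animals, was kept. An effect of dose on the median, apart from that choice, was not tested. The mean of the 5 doses against vehicle called 0 of 39 (1.97% of probe sets, limma), with 6 genes at an unadjusted p under 0.05 beside 12.5%. The moderated F test over the 5 doses called the same 8 genes as 485 mg/kg (13%).

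**Figure D2:**
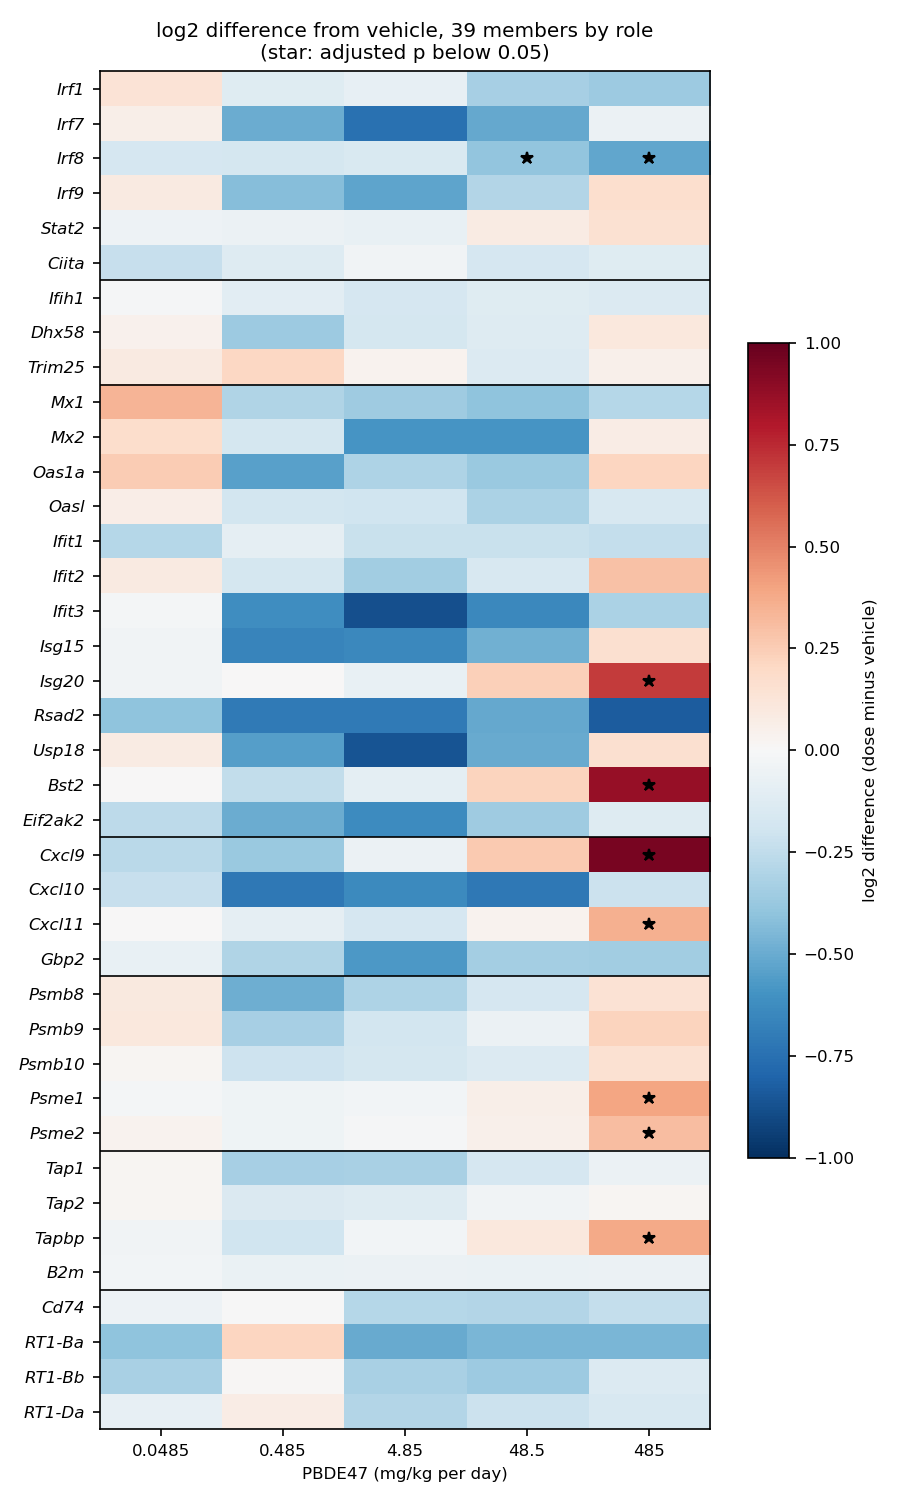
Log2 difference from vehicle of the 39 genes (rows, by role) at the 5 doses (columns, in mg/kg), with a star where the adjusted p is below 0.05. The stars sit on 8 genes at 485 mg/kg and on Irf8 at 48.5 mg/kg, and 38 of 39 cells at 4.85 mg/kg are below 0.

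Upstream of these genes, 1 of 13 interferon receptor and signalling genes passed at 485 mg/kg, beside 15% of all probe sets: Ifngr1, a chain of the interferon gamma receptor, fell by 0.33 on the log2 scale (SE 0.06, limma adjusted p = 0.000203). Of 13 interferons and sensing genes, 2 passed, beside the same 15%: Irf3, which switches on interferon beta, changed by 0.24 ± 0.06 (adjusted p = 0.00835) and Myd88, an adaptor of Toll-like receptors, by -0.37 ± 0.09 (adjusted p = 0.00276), both by limma. Myd88 was also lower at 48.5 mg/kg, with a change of -0.32 ± 0.09 (limma adjusted p = 0.0405).

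Among the transcription factors and regulators, Irf8 was the 1 gene of 6 that passed at 485 mg/kg and at 48.5 mg/kg. Irf8 directs the development of dendritic cells and macrophages. Its lowest, median and highest values were 6.07, 6.52 and 6.66 at 485 mg/kg, against 6.84, 6.86 and 7.38 in vehicle livers. No 485 mg/kg animal reached the lowest vehicle animal (non-overlapping and lower: 3.03% of probe sets). The change was -0.52 ± 0.11 (limma adjusted p = 0.001, n = 6 per group). At the other doses the values were 6.60, 6.76 and 7.06 at 0.0485 mg/kg, 6.55, 6.79 and 7.11 at 0.485 mg/kg, 6.34, 6.89 and 7.10 at 4.85 mg/kg and 6.45, 6.56 and 6.69 at 48.5 mg/kg. The 48.5 mg/kg group also lay wholly below vehicle (0.677% of probe sets), with a change of -0.39 ± 0.11 (limma adjusted p = 0.0434). That call was lost in 11 of 36 fits that each left out 1 array (adjusted p up to 0.149 by limma). Each of these left out an array of the groups compared: vehicle replicate 1, 2, 3, 5 or 6, or any 48.5 mg/kg animal. Of the arrays in these groups, only vehicle replicate 4 could be left out without losing the call. Without vehicle replicate 2, the highest animal of its group at 7.38, the change was -0.31. Beside these falls, 5 of 9 macrophage markers passed as lower at 485 mg/kg (7.22% of probe sets). They were Lyz2 (-0.96 ± 0.26), Clec4f (-0.62 ± 0.18), Cd163 (-0.54 ± 0.13), Csf1r (-0.52 ± 0.14) and C1qb (-0.40 ± 0.14). The 9 markers summed to 4261 to 6060 at 485 mg/kg, against 6754 to 8434 in vehicle livers, and to 5430 to 8119 at 48.5 mg/kg, where 0 of 9 passed by limma and 1 had an unadjusted p under 0.05. Of 4 dendritic cell markers 2 were lower at 485 mg/kg (7.22% of probe sets), Clec9a (-0.47 ± 0.12) and Itgax (-0.34 ± 0.10). Clec9a was also lower at 48.5 mg/kg (-0.40 ± 0.12). Arrays gave no detection call, so no marker can be said to be at 0. The part of macrophage and dendritic cell RNA in the Irf8 change was not tested.

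Irf7 amplifies interferon production and Irf9 is the DNA-binding partner of STAT2, and these were the regulators with the largest spread between animals. Irf7 had lowest, median and highest values of 8.04, 8.39 and 9.11 in vehicle livers, 8.03, 8.50 and 9.13 at 0.0485 mg/kg and 6.56, 8.13 and 8.57 at 0.485 mg/kg. For Irf7 the values were 5.91, 8.16 and 8.71 at 4.85 mg/kg, 6.83, 8.08 and 8.43 at 48.5 mg/kg and 7.27, 8.37 and 9.13 at 485 mg/kg. The groups overlapped, and the lowest animals at 0.485, 4.85, 48.5 and 485 mg/kg were ones that stand apart. Irf9 had lowest, median and highest values of 7.53, 7.85 and 8.19 in vehicle livers, 7.60, 7.97 and 8.36 at 0.0485 mg/kg and 6.05, 7.64 and 7.89 at 0.485 mg/kg. In the higher dose groups Irf9 was 5.82, 7.75 and 8.19 at 4.85 mg/kg, 6.30, 7.74 and 8.05 at 48.5 mg/kg and 7.38, 8.01 and 8.65 at 485 mg/kg. At 4.85 mg/kg Irf9 was 6.24 and 5.82 in replicates 5 and 6, and at least 7.65 in the other animals of that group. Neither gene passed at any dose. Their changes at 485 mg/kg were -0.06 and 0.17. Irf1, an interferon gamma response factor, Stat2 and Ciita, the master regulator of class II genes, did not pass at any dose by the brightest probe set. Their changes at 485 mg/kg were -0.37, 0.15 and -0.12. A second Ciita probe set passed as lower at 485 mg/kg.

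None of the RNA sensors passed at any dose. Ifih1 and Dhx58 are helicases that detect viral RNA, and Trim25 is the ligase that activates a related sensor. Trim25 had lowest, median and highest values of 8.59, 8.90 and 9.53 in vehicle livers, 8.62, 8.96 and 9.76 at 0.0485 mg/kg and 8.81, 9.21 and 9.45 at 0.485 mg/kg. Trim25 values were 8.27, 9.04 and 9.48 at 4.85 mg/kg, 8.33, 8.78 and 9.34 at 48.5 mg/kg and 8.42, 8.78 and 10.27 at 485 mg/kg. The groups overlapped, and the highest Trim25 animal was replicate 5 at 485 mg/kg. Dhx58 had lowest, median and highest values of 5.67, 5.87 and 5.95 in vehicle livers, 5.47, 5.90 and 6.06 at 0.0485 mg/kg and 4.96, 5.53 and 5.79 at 0.485 mg/kg. The 4.85 mg/kg animals had 4.86, 5.84 and 6.41, the 48.5 mg/kg animals 5.29, 5.77 and 5.85 and the 485 mg/kg animals 5.75, 5.86 and 6.33 for Dhx58. Ifih1 stayed between 6.46 and 7.20 in all 36 animals.

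Of the 13 type I effectors, Bst2 and Isg20 passed at 485 mg/kg, where 15% of all probe sets did. Bst2 (tetherin) holds budding virus particles at the cell surface. Its lowest, median and highest values were 12.02, 12.21 and 12.48 at 485 mg/kg, against 11.03, 11.38 and 11.84 in vehicle livers. Every 485 mg/kg animal exceeded every vehicle animal (non-overlapping and higher: 4.3% of probe sets). Bst2 averaged 12.25 ± 0.19 at 485 mg/kg and 11.37 ± 0.28 in vehicle livers (SD, n = 6 each), a change of 0.87 ± 0.14 or 1.83-fold (limma adjusted p = 1.09e-05). At the other doses Bst2 was 11.09, 11.40 and 11.64 at 0.0485 mg/kg, 10.68, 11.19 and 11.46 at 0.485 mg/kg, 10.65, 11.39 and 11.56 at 4.85 mg/kg and 11.41, 11.54 and 11.84 at 48.5 mg/kg, and none of these differed from vehicle by the test. Bst2 at 485 mg/kg also exceeded each animal at 48.5 mg/kg, by 0.65 ± 0.14 (limma adjusted p = 0.00235).

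Isg20 is an exonuclease that degrades RNA. Its lowest, median and highest values were 5.45, 5.99 and 6.66 at 485 mg/kg, against 5.04, 5.28 and 5.62 in vehicle livers. The groups overlapped through replicate 6 at 485 mg/kg, at 5.45, while replicate 4 was the highest of all 36. The change was 0.70 ± 0.13, or 1.62-fold (limma adjusted p = 0.000141). At lower doses Isg20 was 5.05, 5.29 and 5.42 at 0.0485 mg/kg, 4.91, 5.33 and 5.69 at 0.485 mg/kg, 4.97, 5.21 and 5.50 at 4.85 mg/kg and 5.36, 5.59 and 5.65 at 48.5 mg/kg. Against 48.5 mg/kg the change was 0.45 ± 0.13 (limma adjusted p = 0.0321), a call lost in 6 of 36 fits that left out 1 array. Each of these left out an animal of the groups compared: replicate 2, 4 or 6 at 48.5 mg/kg, or replicate 1, 3 or 4 at 485 mg/kg. Without replicate 4 at 485 mg/kg the change was 0.32, with a limma adjusted p of 0.117.

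The other 11 type I effectors did not pass at any dose, and their spread between animals was wide. Usp18, which removes Isg15 from proteins, had the largest within-group SD of the 39 genes (0.86, and 0.44 without the 5 animals that stand apart). Usp18 had lowest, median and highest values of 7.26, 8.14 and 8.67 in vehicle livers, 7.51, 8.19 and 9.07 at 0.0485 mg/kg and 5.87, 7.79 and 8.43 at 0.485 mg/kg. For Usp18 the values were 5.61, 7.58 and 8.44 at 4.85 mg/kg, 5.83, 7.87 and 8.23 at 48.5 mg/kg and 6.53, 8.38 and 9.04 at 485 mg/kg. The lowest animals at 0.485 mg/kg and above were ones that stand apart. The medians, from 7.58 to 8.38, differed by less than the within-group SD of 36 animals (0.86). They differed by more than the SD without the 5 animals (0.44). Mx2 had lowest, median and highest values of 6.25, 6.75 and 8.12 in vehicle livers, 6.75, 7.31 and 7.55 at 0.0485 mg/kg and 5.09, 7.10 and 7.57 at 0.485 mg/kg. In the higher dose groups Mx2 was 5.06, 6.44 and 7.78 at 4.85 mg/kg, 4.55, 6.61 and 7.40 at 48.5 mg/kg and 6.11, 7.12 and 8.16 at 485 mg/kg. Mx2 and Mx1 are GTPases that block virus replication. Rsad2 (viperin), an enzyme that makes a chain-terminating nucleotide, had the lowest change at 485 mg/kg of genes not called (-0.83 ± 0.30, limma adjusted p = 0.0575). At 4.85 mg/kg the kinase Eif2ak2, which shuts down translation on binding viral RNA, had the smallest p of the 39 (-0.63 ± 0.17, unadjusted p = 0.000842), and its limma adjusted p was 0.339. Changes at 485 mg/kg were -0.28 for Mx1, 0.22 for Oas1a, -0.16 for Oasl, -0.23 for Ifit1, 0.29 for Ifit2, -0.32 for Ifit3 and 0.16 for Isg15. Oas1a makes a messenger that activates RNA cleavage, and the Ifit proteins bind foreign RNA. Of 33 further interferon-stimulated genes 3 passed at 485 mg/kg, beside 15% of all probe sets. Ifi27l2b (0.55 ± 0.18) was higher, and the membrane proteins Ifitm1 (-0.41 ± 0.09) and Ifitm2 (-0.28 ± 0.08) were lower.

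Of the chemokines and GTPase, Cxcl9 and Cxcl11 passed at 485 mg/kg and Cxcl10 and Gbp2 did not. The chemokines attract activated T cells through the receptor Cxcr3. Cxcl9 had lowest, median and highest values of 8.53, 8.78 and 9.33 at 485 mg/kg, against 7.50, 7.70 and 8.68 in vehicle livers. All 485 mg/kg animals exceeded 5 of the 6 vehicle animals, and the overlap came from vehicle replicate 2 at 8.68. The change was 0.95 ± 0.24, or 1.93-fold (limma adjusted p = 0.00446), and a further Cxcl9 probe set gave 0.92. At the other doses Cxcl9 was 7.17, 7.41 and 8.59 at 0.0485 mg/kg, 7.06, 7.40 and 8.00 at 0.485 mg/kg, 6.83, 7.97 and 8.26 at 4.85 mg/kg and 7.46, 8.02 and 8.88 at 48.5 mg/kg. Cxcl11 had values of 9.83, 10.01 and 10.30 at 485 mg/kg, against 9.47, 9.59 and 9.95 in vehicle livers. Its change was 0.35 ± 0.11 (limma adjusted p = 0.0187), and the call was lost without vehicle replicate 4, vehicle replicate 5 or 485 mg/kg replicate 5 (adjusted p up to 0.0619). In the lower dose groups Cxcl11 was 9.48, 9.60 and 9.91 at 0.0485 mg/kg, 9.36, 9.55 and 9.80 at 0.485 mg/kg, 9.08, 9.50 and 9.79 at 4.85 mg/kg and 9.61, 9.70 and 9.86 at 48.5 mg/kg. Those 4 groups overlapped vehicle throughout. T and NK cell markers did not rise with these chemokines. At 485 mg/kg 2 of 17 passed, both lower (Cd8a -0.53 ± 0.10 and Cd3d -0.22 ± 0.08), beside 7.22% of probe sets as lower. The list summed to 605 to 823, against 785 to 1079 in vehicle livers.

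Cxcl10 had lowest, median and highest values of 5.85, 6.36 and 7.58 in vehicle livers, 6.01, 6.21 and 6.97 at 0.0485 mg/kg and 5.25, 5.95 and 6.16 at 0.485 mg/kg. Cxcl10 values were 5.15, 6.00 and 6.71 at 4.85 mg/kg, 5.37, 5.89 and 6.58 at 48.5 mg/kg and 6.09, 6.33 and 6.99 at 485 mg/kg. The 2 highest Cxcl10 animals were vehicle replicates 2 and 3, at 7.58 and 7.42. Its change was -0.72 ± 0.26 at 48.5 mg/kg (limma adjusted p = 0.139) and -0.22 at 485 mg/kg. Gbp2 had lowest, median and highest values of 7.06, 7.21 and 8.16 in vehicle livers, 6.08, 7.27 and 8.25 at 0.0485 mg/kg and 6.09, 7.22 and 7.52 at 0.485 mg/kg. The 4.85 mg/kg animals had 5.48, 7.34 and 7.59, the 48.5 mg/kg animals 5.73, 7.21 and 7.55 and the 485 mg/kg animals 6.71, 6.82 and 7.88 for Gbp2. Gbp2, a GTPase of cell-autonomous defence, overlapped vehicle at every dose.

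**Figure D3:**
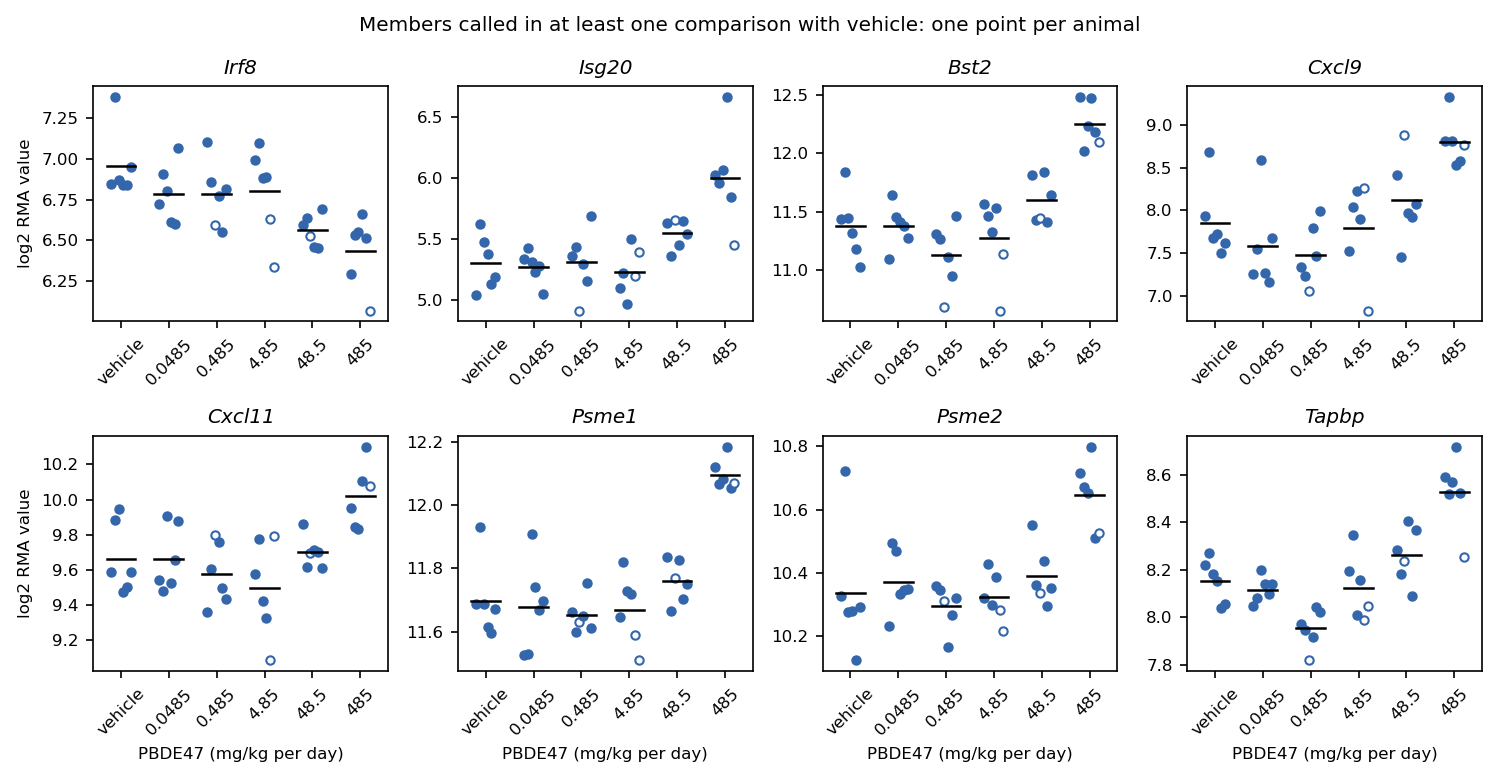
Log2 values of the 8 genes that passed at 485 mg/kg, 1 point per animal in each of 6 dose groups (x axis, vehicle then mg/kg), with bars at group means and open circles for the 5 animals that stand apart. Bst2 and Psme1 at 485 mg/kg lie wholly above vehicle, and Irf8 lies wholly below it.

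All 5 immunoproteasome and activator genes had a positive change at 485 mg/kg, by 0.14 to 0.40 against vehicle and by 0.26 to 0.34 against 48.5 mg/kg. The activator subunits Psme1 and Psme2, which open the proteasome gate, passed at 485 mg/kg, and the catalytic subunits Psmb8, Psmb9 and Psmb10 did not. The difference between activator and catalytic subunits was not tested. Psme1 had lowest, median and highest values of 12.05, 12.08 and 12.18 at 485 mg/kg, against 11.60, 11.68 and 11.93 in vehicle livers. The ranges did not overlap, nor did those of 485 and 48.5 mg/kg (higher and non-overlapping: 1.45% of probe sets). Psme1 averaged 12.10 ± 0.05 at 485 mg/kg and 11.70 ± 0.12 in vehicle livers (SD, n = 6 each), a change of 0.40 ± 0.06 or 1.32-fold (limma adjusted p = 4.75e-06). A second, dimmer Psme1 probe set gave -0.04. At the other doses Psme1 was 11.53, 11.68 and 11.91 at 0.0485 mg/kg, 11.60, 11.64 and 11.75 at 0.485 mg/kg, 11.51, 11.68 and 11.82 at 4.85 mg/kg and 11.67, 11.76 and 11.83 at 48.5 mg/kg. Psme2 had values of 10.51, 10.66 and 10.80 at 485 mg/kg, against 10.12, 10.29 and 10.72 in vehicle livers. Vehicle replicate 2, at 10.72, was the 1 vehicle animal within the 485 mg/kg range. The change was 0.31 ± 0.07 (limma adjusted p = 0.00118). Psme2 at lower doses was 10.23, 10.35 and 10.50 at 0.0485 mg/kg, 10.17, 10.32 and 10.36 at 0.485 mg/kg, 10.22, 10.31 and 10.43 at 4.85 mg/kg and 10.30, 10.36 and 10.55 at 48.5 mg/kg. At 485 against 48.5 mg/kg Psme1 differed by 0.34 ± 0.06 and Psme2 by 0.26 ± 0.07 (limma adjusted p = 0.000279 and 0.0198). The Psme2 call was lost in 2 of 36 fits that each left out 1 array, without replicate 4 at 485 mg/kg (limma adjusted p = 0.0581) or replicate 5 at 48.5 mg/kg, and after quantile normalization (0.23, limma adjusted p = 0.0507). The Psme1 call was lost as the mean of its probe sets (0.18, limma adjusted p = 0.0547). In that comparison of 485 with 48.5 mg/kg, 5 of the 39 passed, all higher (4.86% of probe sets, 2.55% as higher): Isg20, Bst2, Psme1, Psme2 and Tapbp.

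The catalytic subunits varied more between animals than the activator. Psmb8 had lowest, median and highest values of 8.76, 9.36 and 10.12 in vehicle livers, 9.0, 9.47 and 10.24 at 0.0485 mg/kg and 8.50, 8.90 and 9.48 at 0.485 mg/kg. For Psmb8 the values were 8.18, 9.23 and 9.77 at 4.85 mg/kg, 9.06, 9.22 and 9.50 at 48.5 mg/kg and 9.20, 9.57 and 9.83 at 485 mg/kg. Vehicle replicate 2 and 0.0485 mg/kg replicate 3 were the highest animals of their groups. Psmb9 had lowest, median and highest values of 8.54, 8.74 and 9.57 in vehicle livers, 8.61, 8.89 and 9.58 at 0.0485 mg/kg and 8.07, 8.58 and 8.86 at 0.485 mg/kg. In the higher dose groups Psmb9 was 7.98, 8.90 and 9.07 at 4.85 mg/kg, 8.64, 8.79 and 9.05 at 48.5 mg/kg and 8.75, 9.12 and 9.53 at 485 mg/kg. At 485 mg/kg the changes were 0.14 ± 0.22 for Psmb8, 0.23 ± 0.18 for Psmb9 and 0.15 ± 0.13 for Psmb10. Of the constitutive proteasome core all 13 measured genes passed as higher at 485 mg/kg (7.81% of probe sets), with a median change of 0.45. The range was 0.28 (Psma3) to 0.70 (Psma1, limma adjusted p = 5.71e-12), and 7 of 13 passed at 48.5 mg/kg (3.39%). The difference between the core and the immunoproteasome subunits was not tested.

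Of 4 class I peptide loading genes 1, Tapbp, passed at 485 mg/kg by the brightest probe set, beside 15% of all probe sets. Tapbp (tapasin) holds empty class I molecules at the peptide transporter. Its lowest, median and highest values were 8.25, 8.55 and 8.72 at 485 mg/kg, against 8.04, 8.17 and 8.27 in vehicle livers. The lowest 485 mg/kg animal, replicate 6 at 8.25, was the only one within the vehicle range. The change was 0.38 ± 0.07, or 1.30-fold (limma adjusted p = 5.78e-05), and 0.27 ± 0.07 against 48.5 mg/kg (adjusted p = 0.0103). Tapbp at lower doses was 8.05, 8.12 and 8.20 at 0.0485 mg/kg, 7.82, 7.96 and 8.04 at 0.485 mg/kg, 7.99, 8.10 and 8.35 at 4.85 mg/kg and 8.09, 8.26 and 8.41 at 48.5 mg/kg. Tap1 and Tap2 form the transporter. Tap1 had lowest, median and highest values of 7.35, 7.52 and 8.33 in vehicle livers, 7.15, 7.65 and 8.03 at 0.0485 mg/kg and 6.83, 7.31 and 7.58 at 0.485 mg/kg. Tap1 values were 6.26, 7.48 and 7.77 at 4.85 mg/kg, 7.20, 7.38 and 7.73 at 48.5 mg/kg and 6.95, 7.47 and 8.28 at 485 mg/kg. Tap2 had lowest, median and highest values of 7.30, 7.45 and 7.74 in vehicle livers, 7.31, 7.52 and 7.78 at 0.0485 mg/kg and 7.25, 7.31 and 7.55 at 0.485 mg/kg. The 4.85 mg/kg animals had 7.16, 7.44 and 7.50, the 48.5 mg/kg animals 7.30, 7.46 and 7.58 and the 485 mg/kg animals 7.15, 7.57 and 7.71 for Tap2. Both overlapped vehicle at every dose. B2m, the light chain of class I molecules, had the smallest within-group SD of the 39 (0.06). It stood at 13.91 to 13.94 in the 5 animals that stand apart and 13.99 to 14.15 in the others. A second B2m probe set passed as lower at 485 mg/kg. Of 20 further antigen presentation genes 3 passed at 485 mg/kg, beside 15% of all probe sets. All 3 were higher: the peptide trimmer Erap1 (0.32 ± 0.08) and the chaperones Pdia3 (0.29 ± 0.06) and Canx (0.16 ± 0.05).

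No class II gene passed at any dose. Cd74, the invariant chain, guards the groove of the class II chains RT1-Ba, RT1-Bb and RT1-Da. RT1-Ba had lowest, median and highest values of 9.06, 10.29 and 10.61 in vehicle livers, 9.32, 9.72 and 10.16 at 0.0485 mg/kg and 9.69, 10.37 and 10.99 at 0.485 mg/kg. For RT1-Ba the values were 8.92, 9.57 and 10.54 at 4.85 mg/kg, 8.79, 9.93 and 10.20 at 48.5 mg/kg and 8.62, 9.98 and 10.47 at 485 mg/kg. RT1-Da had lowest, median and highest values of 9.69, 10.27 and 10.52 in vehicle livers, 9.39, 10.05 and 10.84 at 0.0485 mg/kg and 9.62, 10.30 and 10.82 at 0.485 mg/kg. In the higher dose groups RT1-Da was 8.95, 9.98 and 10.36 at 4.85 mg/kg, 9.65, 9.96 and 10.23 at 48.5 mg/kg and 9.41, 10.01 and 10.55 at 485 mg/kg. All groups overlapped. Changes at 485 mg/kg were -0.46 ± 0.32 for RT1-Ba, -0.13 ± 0.14 for RT1-Bb, -0.16 ± 0.22 for RT1-Da and -0.24 ± 0.20 for Cd74.

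The probe sets of the RT1-B chains differed from one another. On a second, dimmer RT1-Bb probe set 10 animals lay between 6.06 and 7.47 and the other 26 between 3.89 and 4.66, with no animal in between. The 10 comprised 1 vehicle animal, 3 of the 0.0485 mg/kg group, none of the 0.485 mg/kg group and 2 of each higher dose group. Among the 10 were 3 of the 5 animals that stand apart. The second brightest RT1-Ba probe set split the same animals, with 8.35 to 9.22 in the 10 and 6.88 to 7.81 in the 26. The brightest RT1-Ba probe set ran the other way, with 8.62 to 9.88 in the 10 and 8.98 to 10.99 in the 26. RT1-Da (9.41 to 10.84 and 8.95 to 10.82) and Cd74 (9.30 to 10.57 and 8.98 to 10.62) overlapped between them. These probe sets were singled out after their values were seen. RT1-Ba and RT1-Bb values thus depended on the probe set. Whether the array annotation names the right RT1 locus for each could not be settled, so elsewhere a value of RT1-Ba or RT1-Bb is that of the brightest probe set carrying the name.

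**Figure D4:**
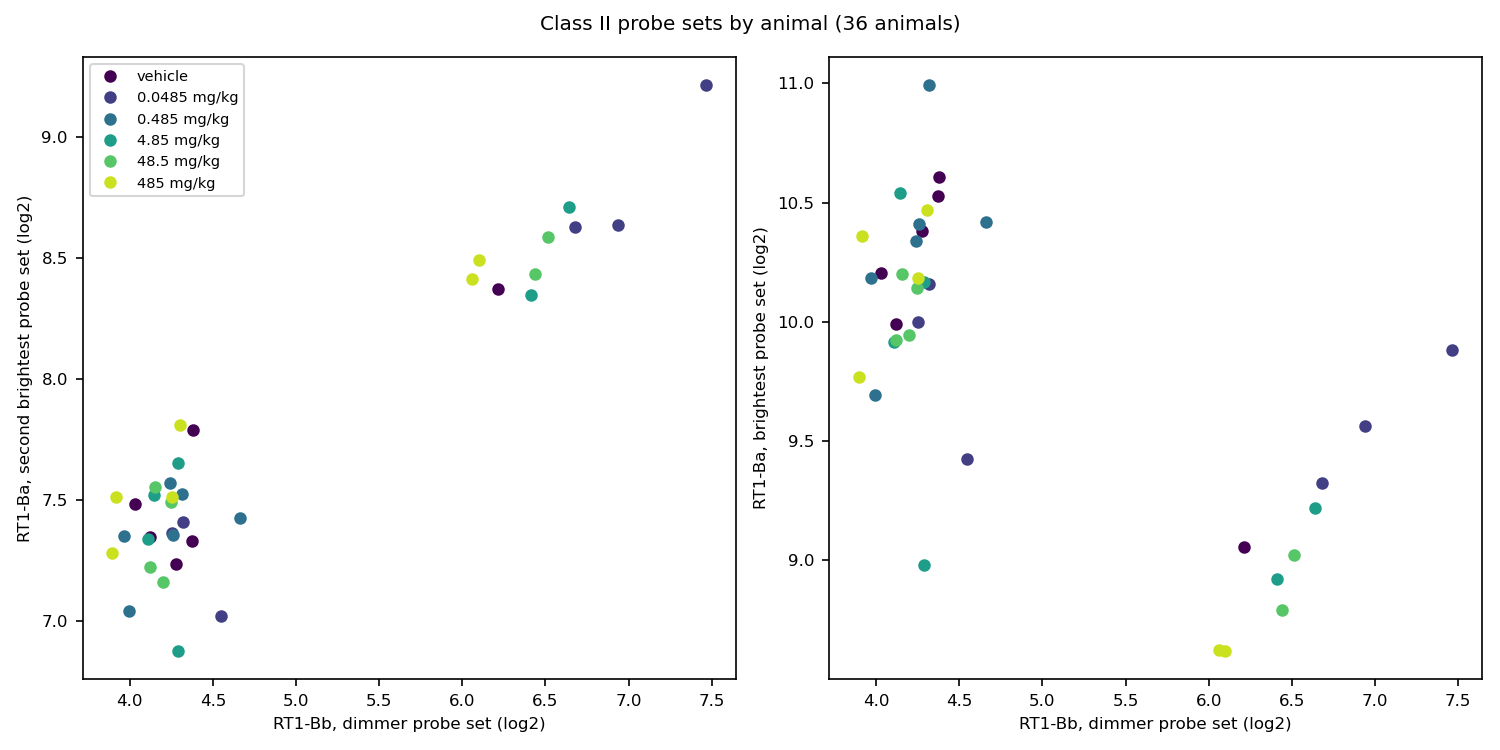
Each point is 1 of 36 animals, coloured by dose, with the dimmer RT1-Bb probe set on the x axis and the second brightest (left) and brightest (right) RT1-Ba probe sets on the y axes, all log2. The 10 animals at 6.06 or more on the x axis are the highest on the left panel and mostly the lowest on the right, and they come from 5 of the 6 groups.

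Without the 5 animals that stand apart the spread between animals of a group was smaller in many of these genes. With all 36 animals the pooled within-group SD had a median of 0.34 over the 39, beside 0.14 over all 14217 named genes, and 28 of 39 exceeded the 90th percentile of all named genes (0.225). Without the 5 the medians were 0.26 and 0.14, and 23 of 39 exceeded the 90th percentile (0.221). By role the median SD was 0.56 for type I effectors (0.40 without the 5), 0.47 for the chemokines and Gbp2 (0.41), 0.39 for class II (0.33), 0.23 for the immunoproteasome (0.24) and 0.13 for class I peptide loading (0.11). In single genes the SD was 0.61 for Irf9 and 0.25 without the 5, 0.70 and 0.35 for Irf7, 0.86 and 0.44 for Usp18, and 0.73 and 0.41 for Mx1. The 5 animals were chosen for low type I effectors, so smaller SDs of these genes without them follow from that choice. Among the genes that passed at 485 mg/kg, small SDs were found in Psme1 (0.10), Tapbp (0.11) and Psme2 (0.12).

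The genes also varied together. After subtraction of group means, the median Pearson r over 741 pairs of members was 0.52 in 36 animals, with 647 pairs positive, and 0.38 without the 5 animals that stand apart. These points share arrays, so the values are descriptive. Within roles the median r was 0.76 for class II (0.70 without the 5, both from the brightest probe sets alone), 0.71 for the immunoproteasome (0.72), 0.64 for type I effectors (0.52) and 0.61 for class I peptide loading (0.34). By group it lay between 0.43 at 48.5 mg/kg and 0.76 at 4.85 mg/kg, the group with 2 of the 5 animals. The r of a gene with the mean of the other members had a median of 0.71 over the 39 (0.62 without the 5), beside 0.01 over 14178 other named genes, of which 2.02% exceeded 0.5. Isg15 (0.97), Irf7 (0.95), Usp18 (0.95) and Mx1 (0.95) followed the rest most closely. Ciita (-0.27), Ifit1 (-0.27), Trim25 (0.07), Cxcl11 (0.10) and Stat2 (0.26) had the lowest r in 36 animals. Without the 5 animals their r was -0.11, -0.19, -0.24, 0.39 and -0.12. In that setting RT1-Ba (0.38), B2m (0.29) and RT1-Bb (0.18) also lay below Cxcl11.

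**Figure D5:**
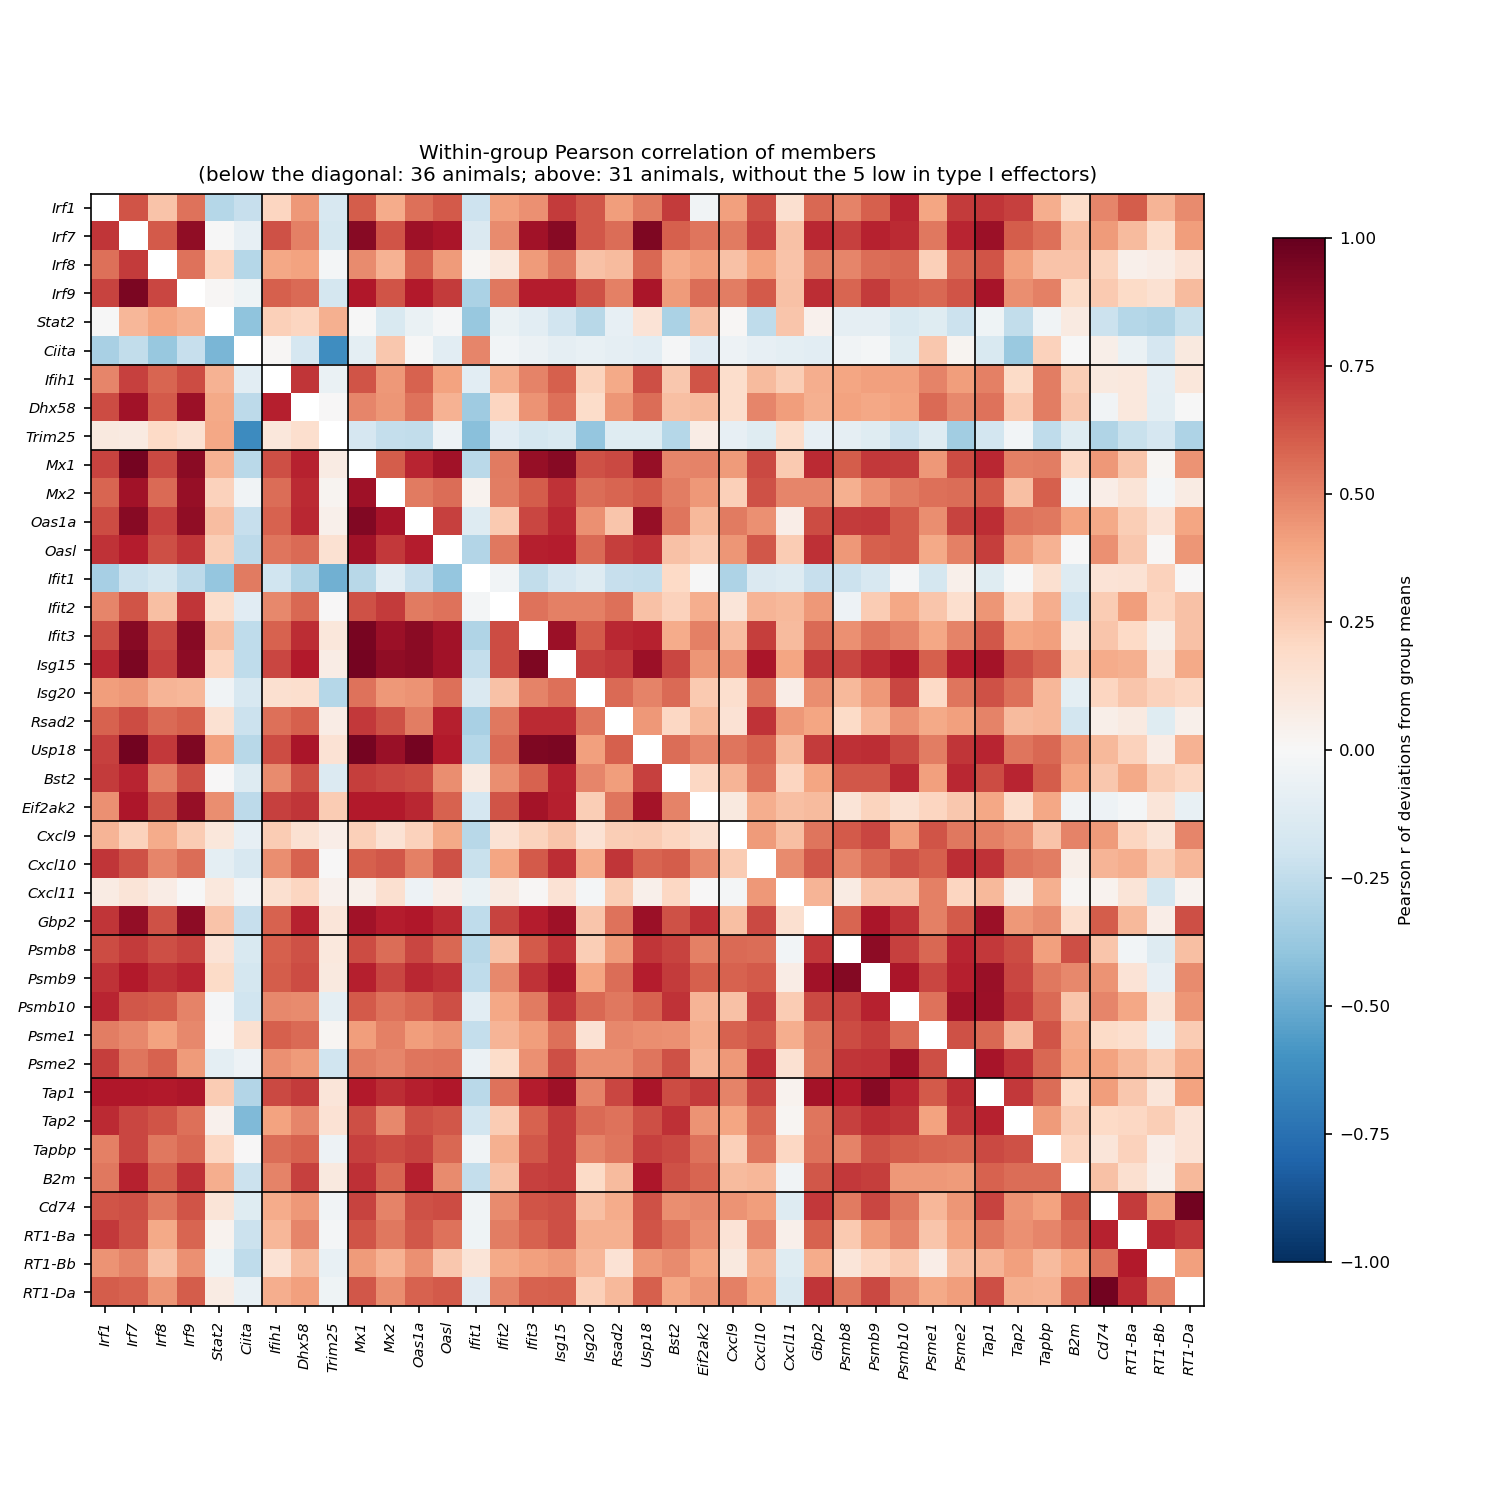
Pearson r of deviations from group means for each pair of the 39 genes, in 36 animals below the diagonal and in 31 animals, without the 5 that stand apart, above it; lines separate the roles. The type I effectors are mostly red below the diagonal and paler above it, while rows of Ciita, Ifit1 and Trim25 are pale or blue.

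For 15 pairs, the correlation was tested by permuting animals within groups (100000 resamples, two-sided, Benjamini-Hochberg over the 15). The pairs were chosen with earlier results of these data known, and the adjustment over the 15 does not cover that choice. By Pearson r 13 pairs passed in 36 animals, 12 by Spearman rho and 11 without the 2 animals farthest from the median of the first gene. Without the 5 animals that stand apart 9 passed by each of these measures. Irf7 and Isg15 had r = 0.94 and rho = 0.94 (adjusted permutation p = 2.14e-05 for both, which follows from the smallest p the permutations can give, 1e-05), with r = 0.95 without the 2 farthest animals and 0.91 in 31 animals. Psmb8 and Psmb9, both on chromosome 20 with Tap1 between them, had r = 0.92 and rho = 0.91 (adjusted permutation p = 2.14e-05 for both), with 0.88 without the 2 farthest and 0.90 in 31 animals. Cd74 and RT1-Da had r = 0.97 and rho = 0.96 (adjusted permutation p = 2.14e-05 for both), with 0.96 in both reduced sets. Psme1 and Psme2 had r = 0.64 and rho = 0.55 (adjusted permutation p = 0.00042 and 0.00202), with 0.62 without the 2 farthest and 0.63 in 31 animals. Of 4 pairs of Cd74 with a gene of another role, 3 passed in 36 animals and none in 31. For Irf7 and Cd74 r was 0.65 in 36 and 0.43 in 31 animals (adjusted permutation p = 0.000267 and 0.0637). For Psmb8 and Cd74 it was 0.52 and 0.28, and for Irf8 and Cd74 0.53 and 0.22 (adjusted permutation p = 0.00589 for both in 36, 0.256 and 0.35 in 31). Irf7 and Psmb8 kept r = 0.68 in 31 animals, against 0.70 in 36 (adjusted permutation p = 0.000686 and 2.14e-05). Stat2 and Irf9, partners in the type I interferon factor, had r = 0.36 and rho = 0.29 in 36 animals and r = 0.01 in 31 (adjusted permutation p = 0.0433, 0.106 and 0.95). Ifit1 and Ifit3 (r = -0.30, adjusted permutation p = 0.106) and Cd74 and Ciita (r = -0.12, adjusted permutation p = 0.507, and 0.851 in 31) did not pass in 36 animals.

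Outside the list, the genes whose deviations were most like the member mean over 36 animals were Ms4a6a (r = 0.95), Rtp4 (0.95), Lgals3bp (0.93), Lgals9 (0.93), Fcgr3a (0.93), Cd68 (0.92), Igtp (0.92), RT1-S3 (0.92), RGD1309362 (0.92) and Ly86 (0.91). In 31 animals their r ran from 0.76 (Cd68) to 0.90 (Igtp). Of the lists, 33 further interferon-stimulated genes had a median r with the member mean of 0.83 (0.69 in 31 animals) and 9 macrophage markers 0.85 (0.65), whereas 9 hepatocyte markers had -0.09 (-0.11), 17 T and NK cell markers 0.28 (0.19) and 13 constitutive proteasome genes 0.14 (0.42).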

How the data were processed

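The deposited values were log2 expression values, summarised and normalised by the authors with RMA through affy, per the submitters' processing notes. Of 31099 probe sets, 57 controls were left out. Symbols came from the platform annotation: 20826 probe sets named 1 gene, 436 several and 9780 none. No batch was stated. Each replicate is 1 animal, per the labels.

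A one-way model over 36 arrays was fitted with limma 3.58.1 (R 4.3.3), with Benjamini-Hochberg adjustment over 31042 probe sets and a threshold of 0.05. The number of arrays limits precision. Within-group correlations used deviations from group means (numpy 2.4.6, with ranks for Spearman rho of the tested pairs from scipy 1.17.1). Both were tested on simulated data. The members, the lists and the tested pairs were chosen with earlier results of these data known. Values by group are given for every gene called and for the 2 genes of each role with the largest within-group SD, up to 3 called genes are named per further list, and the 10 likest genes outside the list are named. Alternatives were array centring, quantile normalization, a filter on dim probe sets, the ordinary test, averaging all probe sets of a gene, only the 12 arrays compared, a replicate block and leaving out each array. The setting without 5 animals was added after the data were seen. The mean r of same-numbered animals was 0.0194 (19 of 90 pairs above 0.1), beside -0.00377 for animals of different number (74 of 450 pairs). The study's own maanova test was not run.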

Additional observations from a re-analysis of the deposited data

Results flagged for a closer look

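In 31 of 234 sets of 6 animals (39 genes in 6 groups) 1 animal lay far from the other 5 by Dixon's test, which chance alone does in about 1 of 20 sets. Of these, 16 fell in animals that stand apart by their type I effectors and 8 in vehicle replicate 2. The former were chosen for low type I effectors, so flags on those genes in them follow in part from that choice. Of the genes flagged in them, Irf7, Irf9, Dhx58 and Gbp2 were not part of the score. The 234 sets are not independent, because the genes vary together and 1 animal can be flagged in many of them.

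Replicate 3 at 48.5 mg/kg was the low animal of its group for 10 genes: Irf7 (6.83), Irf9 (6.30), Dhx58 (5.29), Mx1 (4.20), Mx2 (4.55), Oas1a (4.73), Ifit3 (4.08), Isg15 (6.32), Usp18 (5.83) and Gbp2 (5.74). Replicate 3 at 0.485 mg/kg was low for 5 genes, Irf7 (6.56), Irf9 (6.05), Mx1 (3.71), Mx2 (5.09) and Ifit3 (3.95). Replicate 6 at 485 mg/kg was low for Usp18 (6.53). The macrophage marker list was also low in these animals, and its part in the values was not tested.

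Vehicle replicate 2 was the high animal of its group for the regulators Irf1 (8.23) and Irf8 (7.38), the chemokine Cxcl9 (8.68), the GTPase Gbp2 (8.16), the proteasome genes Psmb10 (8.98), Psme1 (11.93) and Psme2 (10.72) and the transporter Tap1 (8.33). In that animal the T and NK cell markers summed to 1079 (linear intensity), the highest of all 36, and the macrophage markers to 8434, the highest in vehicle livers, with a median log2 difference of 0.34. Their part in these values was not tested.

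Replicate 4 at 485 mg/kg was high for Gbp2 (7.88) and Psmb10 (8.97). Cxcl9 was high in replicate 3 at 0.0485 mg/kg (8.59) and in replicate 2 at 485 mg/kg (9.33). Cxcl10 was low in replicate 4 at 0.485 mg/kg (5.25). Stat2 was low in replicate 4 at 0.0485 mg/kg (8.68) and high in replicate 5 at 485 mg/kg (9.75).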

How the results depend on the processing

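The 8 calls at 485 mg/kg held under every other setting run except leaving out 1 array, which gave counts of 7 to 9. At 48.5 mg/kg the count was 0 with each array centred on its median (Irf8 -0.38, limma adjusted p = 0.059) and 0 with the ordinary test (adjusted p = 0.0594), and 0 to 1 on leaving out 1 array. For 485 against 48.5 mg/kg leaving out 1 array gave 3 to 6 genes, with 3 without replicate 4 at 485 mg/kg. In that comparison Psme2 missed the threshold after quantile normalization (0.23), Isg20 in the ordinary test, Psme1 as the mean of its probe sets (0.18), and Isg20 and Tapbp with only the 12 arrays. Without the 5 animals that stand apart the median correlation of members was 0.384, and r of Cd74 and Ciita was 0.0604, against -0.12 with all 36; the cause was not tested. The replicate block gave 9 genes at 485 mg/kg, including the 8, and 14 of 15 pairs, with r = -0.41 for Ifit1 and Ifit3, and lost no call. Separately, 12 of 36 animals correlated best with their own number. No chance level is given for that count, and a shared effect of replicate number was not tested by it. Signal near background limits dim probe sets such as that of RT1-Bb.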

Other observations

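Further probe sets of B2m, Ciita and Psme1 gave another call at 485 mg/kg than the brightest one. A second probe set of B2m changed by -0.30 ± 0.09 at 485 mg/kg (limma adjusted p = 0.0205), beside -0.05 for the brightest. A second probe set of Ciita changed by -0.30 ± 0.09 (limma adjusted p = 0.0181), beside -0.12, and the within-group r of the 2 Ciita probe sets was -0.07. A second probe set of Psme1 changed by -0.04 (limma adjusted p = 0.808), beside 0.40 for the brightest, which passed. For Cxcl9 both probe sets passed, with r = 0.98 between them.

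Of the other cell type markers at 485 mg/kg, 4 of 5 erythroid genes were lower, among them Car1 (-0.97) and Hbb (-0.77). There, 6 of 9 hepatocyte genes were lower, among them Pck1 (-1.36), beside 7.22% of probe sets called as lower. Jchain, of plasma cells, and the endothelial receptor Kdr were also lower (-0.76 and -0.43). Of 5 cholangiocyte markers only Epcam passed, as higher (0.60), beside 7.81% of probe sets called as higher. The other 4 cholangiocyte markers had negative changes, and the median of the 5 was -0.12. None of 6 neutrophil and 8 stellate cell markers passed by limma.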
